A study of Equus caballus with 22 samples.

Results

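The comparison described here is the response of the equine endometrium to pregnancy at day 12 set against its response at day 8, with most attention to transcripts whose response turned direction between the days. All 22 arrays of the study entered it. At day 12, 6 mares each gave a pregnant sample and a control sample from the matching non-pregnant stage, and at day 8, 5 mares did. All mares were warmbloods, and each biopsy of the lining of the uterus from a pregnant mare was taken after the embryo had been recovered. Within each day the samples were paired by mare number. The mares carry numbers 1 to 6 at day 12 and the same numbers without 3 at day 8, and the labels do not say whether a number marks the same animal on both days. A change is the log2 level in the pregnant sample minus that in the control sample of the same mare and day, where a level is the log2 spot intensity relative to the 75th percentile of its array. The difference is the change at day 12 minus the change at day 8. Of 38457 probes with a value for the difference, 1184 carry a gene symbol, for 609 genes, and each gene is described by its brightest probe unless stated otherwise. A transcript without a symbol is described by its probe with the smallest p for the difference.

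In early pregnancy the endometrium both feeds the conceptus, through secretions of its glands and its surface epithelium, and decides whether the corpus luteum survives. Prostaglandin F from the endometrium ends the life of the corpus luteum in the non-pregnant mare, and pregnancy must hold back that release. The horse conceptus stays round and moves through the uterine lumen for days before it becomes fixed, so that a wide area of endometrium meets it. At the earlier of the days studied the embryo has only lately entered the uterus. Whether the endometrium responds the same way to its arrival and to the later, mobile conceptus is the question that the difference between the days addresses.

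The arrays of both days gave usable signal over most of their spots, with 74.2% to 92.9% of spots well above background. The 2 arrays of each mare and day lay on 1 slide, so every within-mare change is also a change within a slide. No slide and no scan day was shared between the days, and the image analysis version differed between them (10.5.1.1 at day 12 and 10.7.3.1 at day 8). The levels of the days therefore cannot be told apart from these settings. Changes are formed within a slide, but an effect of these settings on a change cannot be told apart from the day either. The difference between the days carries that limit throughout. Genes expressed in endometrium, though not only there, gave signal on every array. The oestrogen receptor ESR1 lay at 4.40 to 6.16 log2 above the 75th percentile, and the stromal proteoglycan DCN was well above background on every array. Some mares stood apart. Over 31038 probes the changes of mare 3 at day 12 had a correlation of -0.154 with the mean of the remaining day 12 mares, against 0.103 to 0.597 when the others were treated so, and at day 8 the correlations ran from -0.135 in mare 4 to 0.265 in mare 2.

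In limma's test of the difference, which blocks on the mare inside its day, 4 of 38457 probes (0.0104%) passed an adjusted p of 0.05, 3 of them with a more positive change at day 12. At an unadjusted p under 0.05 there were 4044 (10.5%). The 4 probes belong to 2 transcripts that carry no symbol here. Each of the 2 changed at day 12 and had a fitted change near 0 at day 8 in its main probe, so passing the test of the difference was not the same as turning direction.

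ENSECAT00000015626 had the largest difference. Its probe with the smallest p stood at -5.93 (lowest), -3.11 (median) and -1.80 (highest) in day 12 pregnant samples and at -9.63, -8.95 and -7.55 in day 12 control samples, and at day 8 every array lay between -10.04 and -8.72. All 6 pregnant day 12 samples were above every other sample. The flag for a signal well above background was set on 6 of 6 pregnant arrays and 1 of 6 control arrays of day 12, and on 0 arrays of day 8. The change was 5.23 ± 0.29 log2 at day 12 (SE, n = 6 mares) and 0.05 ± 0.32 at day 8 (n = 5), a fitted difference of 5.17 ± 0.43 (limma, adjusted p = 0.00286), and 3 of its 5 probes passed. It entered the test through the group in which it was high, its day 8 value sets background against background, and its sizes are therefore not exact. With each day 12 control held at or above the lowest signal called well above background on its array, the pregnant mean was at least 20.8-fold the control mean. With normexp background correction it did not pass (2.08, adjusted p = 0.577) and the sign of its near-zero day 8 change was the opposite one. It passed in 11 of 11 fits that left out a mare. A second of the passing probes was lower in all 5 day 8 mares, from -1.64 to -0.12, where none of its arrays was well above background, so that its lower day 8 values are no measured fall. Its fitted difference was 5.64 ± 0.58 (adjusted p = 0.0142), past the threshold in 6 of 11 such fits.

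ENSECAT00000022839 went the other way. In pregnant day 12 samples its level was -9.10, -7.60 and -5.73 (lowest, median, highest) against -6.24, -5.52 and -4.28 in control samples. At day 8 the pregnant samples of mares 1, 2, 4, 5 and 6 stood at -3.92, -3.88, -5.97, -5.86 and -5.14 and their controls at -3.90, -3.66, -5.95, -6.13 and -5.45, so the groups overlapped at day 8. The changes were -2.27 ± 0.19 and 0.06 ± 0.21, and the difference was -2.33 ± 0.28 (adjusted p = 0.0434). It was well above background on 3 of 6 pregnant arrays of day 12, and passed in 4 of 11 fits that left out a mare. Its other, slightly brighter probe gave -0.92 ± 0.20 and -0.01 ± 0.22 and did not pass. With normexp, relative to all probes, the day 12 change was -0.07 and the difference -0.07, and the day 8 sign flipped.

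The number of probes that passed depended on the mares and on the fit. It was 0 without the mare block (927 at an unadjusted p under 0.05), with quantile normalisation (4224), in the authors' value table (4189) and among probes above background on all 22 arrays (3824), and 33 with array weights. Without mare 3 at day 12 it was 33, without mare 5 at day 12 it was 30, without mare 2 at day 12 it was 9, and without mare 1 at day 12 it was 2. Without mare 1, 2, 5 or 6 at day 8 it was 1, and without mare 4 at day 8 it was 2. At day 12 taken alone 102 probes (0.265%) passed, 41 without the block, with 31 to 977 when a mare of day 12 was left out: 31 without mare 1, 33 without mare 2, 977 without mare 3, 64 without mare 4, 302 without mare 5 and 35 without mare 6. At day 8 alone 0 of 38457 probes (0.0%) passed in limma's test, 2243 had an unadjusted p under 0.05 and the smallest adjusted p was 0.315.

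Of the 102 probes past the threshold at day 12, 81 probes, of 51 accessions, rose, and 41 of the 81 were higher and 40 lower in pregnancy at day 8. Their median change was 1.55 log2 at day 12 and 0.0005 at day 8. The 21 probes that fell at day 12, of only 11 accessions, had a median change of -2.23. At day 8 their median was 0.24, with 17 of the 21 higher in pregnancy. Over all 38457 probes, 20567 (53.5%) had fitted changes of opposite sign, and the changes of the days correlated at -0.0154 across probes, which are not independent of each other. Among the 9614 brightest probes 59.6% had opposite signs and the correlation was -0.177, whereas for the 9615 dimmest these were 48.5% and 0.0157. These shares describe the arrays and were given no test.

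**Figure D1:**
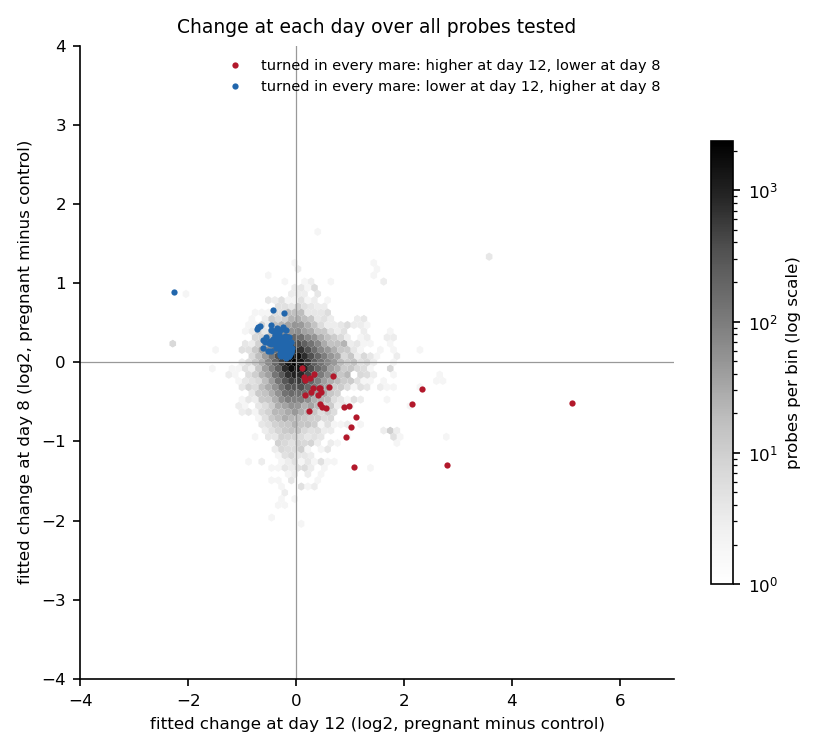
Fitted change at day 12 (x axis) against fitted change at day 8 (y axis), both in log2, for the 38457 probes tested; the grey bins count probes on a log scale. Red points are the 28 probes that were higher at day 12 in 6 of 6 mares and lower at day 8 in 5 of 5, and blue points the 153 probes with the reverse pattern, most of which lie close to the origin.

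A probe was taken as turned in every mare when all 6 within-mare changes of day 12 had one sign and all 5 of day 8 the other. This was so for 181 of 38457 probes (0.471%), a count given as a description. The directions were unequal. Only 28 probes (0.0728%, 23 accessions) were higher in pregnancy at day 12 and lower at day 8, and 153 probes (0.398%, 109 accessions) were lower at day 12 and higher at day 8. The first kind were dim with large changes, with a median level of -3.81 and median changes of 0.47 at day 12 and -0.41 at day 8. The second kind were bright with small changes, with a median level of 1.65 and median changes of -0.25 and 0.21. The median level of all probes was -2.24. Signal was well above background on all 22 arrays for 150 of the 153 probes (98.0%) and for 17 of the 28 (60.7%), against 81.5% of all probes. In 1 of the 28, the second probe of ENSECAT00000015626, no day 8 array was well above background, and the largest difference among the other 27 was 4.09. In the authors' value table, where 35441 probes were tested, the counts were 32 and 90. A rule over fewer mares is easier to meet: the 28 became 82 without mare 3, 103 without mare 5 and 61 without mare 6 of day 12, and 52 without mare 1, 52 without mare 2, 68 without mare 5 and 62 without mare 6 of day 8. The 153 became 294 without mare 3 and 260 without mare 5 of day 12, and 245 without mare 1 and 271 without mare 5 of day 8.

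The levels of these probes by group follow from how they were chosen and are given as a description. The median level of the 153 probes was 1.70 in control samples of day 12 and 1.58 in control samples of day 8. In pregnant samples it was 1.37 at day 12 and 1.78 at day 8. The 28 probes of the first kind had median levels of -3.59 and -3.70 in the controls of day 12 and day 8 and of -2.46 and -4.01 in the pregnant samples. Levels of different days share no slide and were read with different software versions.

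**Figure D2:**
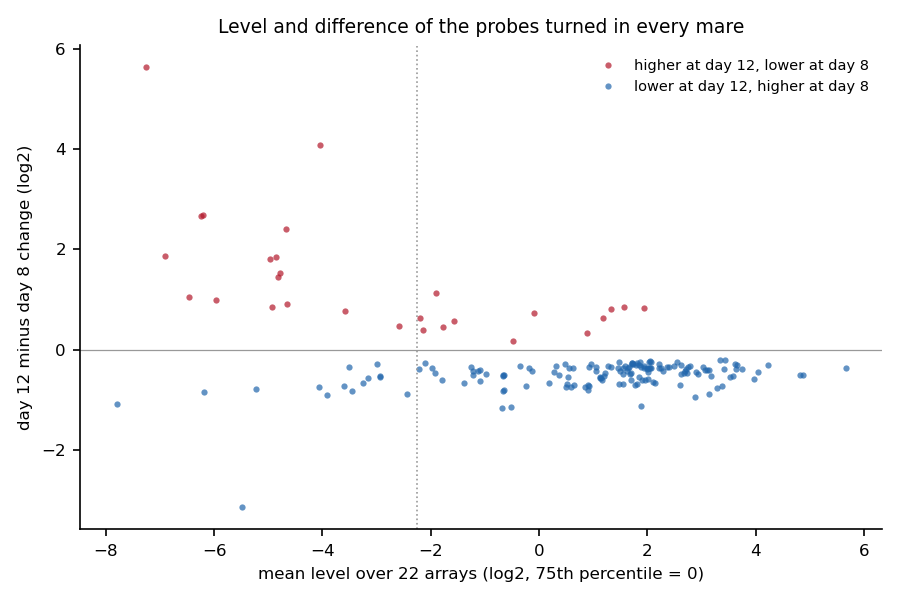
Mean level over the 22 arrays (x axis, log2 relative to the 75th percentile) against the difference between the days (y axis, log2) for the 181 probes turned in every mare; the dotted line is the median level of all probes, -2.24. Red probes, higher at day 12 and lower at day 8, reach a difference of 5.64 in a probe at background on every day 8 array and 4.09 otherwise, and are mostly dim, and blue probes with the reverse pattern are mostly bright with differences nearer to 0.

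A rule on size instead of on sign in every mare gave the opposite balance. Fitted changes past 0.5 log2 in opposite directions were found for 160 probes (0.416%) higher at day 12 and lower at day 8, and for 30 probes (0.078%) with the reverse. Both sets were dim, with median levels of -5.47 and -7.16, and 58 of the 160 and 7 of the 30 were well above background on all 22 arrays. The larger count was 252 without mare 5 of day 12, and 51 in the authors' value table. The smaller count was 57 without mare 4 and 64 without mare 6 of day 8, 19 without mare 5 of day 12, 46 with the array median, 5 in the authors' value table and 0 with normexp background correction.

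Normexp, another way to correct for background, moved values by brightness. The median day 12 change of all probes went from -0.02 to 0.34, and the median day 8 change from -0.01 to -0.03. For the 9615 dimmest probes the median day 12 change was 0.70 under normexp and for the 9614 brightest it was -0.20. Relative to its own medians, 21 of the 28 and 148 of the 153 turned probes still had opposite signs on the 2 days. With quantile normalisation or the array median all 181 did, and in the authors' value table so did all of the 26 and 152 that it holds. Where a named gene loses its day 12 direction with normexp, relative to the median of all probes, this is said beside it. Sign changes at day 8, of the difference or under other scalings are given for some genes only.

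Among the named genes 0 passed for the difference. Of the 609, 60 had an unadjusted p under 0.05 and the smallest adjusted p in limma's test was 0.146. Opposite signs were found for 319 of the 609 (52.4%), close to the share over all probes, with 154 higher at day 12 and lower at day 8 and 165 the reverse. By the brightest probe, 4 of the 609 (0.657%) turned in every mare. These were CHGA and PTGS2, higher at day 12 and lower at day 8, and COPS9 and SMIM7, lower at day 12 and higher at day 8, although with normexp PTGS2 was not higher at day 12 relative to all probes (-0.23).

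CHGA encodes chromogranin A, a protein of the secretory granules of endocrine and neuroendocrine cells. In pregnant day 12 samples its level was -3.11 (lowest), -1.21 (median) and 0.32 (highest), and in control samples -7.02, -4.86 and 0.07. At day 8 the pregnant samples of mares 1, 2, 4, 5 and 6 stood at -5.91, -6.29, -6.40, -6.19 and -6.77, and their controls at -4.72, -4.40, -5.66, -4.30 and -6.00. The day 12 groups overlapped through the controls of mares 1 and 5, that of mare 5 lying above 4 of the 6 pregnant samples, while at day 8 the pregnant samples were tightly grouped and 1 control lay among them. Within mares 1 to 6 the day 12 changes were 1.64, 2.32, 4.87, 3.77, 0.25 and 3.91, and within mares 1, 2, 4, 5 and 6 the day 8 changes were -1.19, -1.89, -0.74, -1.89 and -0.77. CHGA rose by 2.79 ± 0.48 at day 12 (adjusted p = 0.0449) and was lower by 1.30 ± 0.53 (change -1.30, adjusted p = 0.833) at day 8. The difference was 4.09 ± 0.72 (adjusted p = 0.146), and it was past the threshold without mare 5 of day 12 (4.60, adjusted p = 0.0388) and with array weights (adjusted p = 0.0451), while over all alternatives tried the adjusted p ran from 0.0388 to 1.00. All 5 probes of CHGA had opposite signs on the 2 days, from 2.71 to 2.83 at day 12 and from -1.30 to -0.41 at day 8, and 1 of them turned in every mare. That probe was also the 1 of 5 past the threshold at day 12. It was well above background on 6 pregnant and 5 control arrays of day 12 and on all arrays of day 8. The remaining day 12 control was not, so the size of the CHGA change at day 12 is not exact. With normexp, relative to all probes, CHGA kept its direction on both days, and its difference was 1.91 against 4.09.

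Other genes of secretory granules and peptide hormones were taken from a list. Of 9 measured members of that list, by their brightest probes, CHGA alone was higher at day 12 and lower at day 8, 3 had the reverse signs and 0 passed. Without mare 4 of day 8, 2 members were higher at day 12 and lower at day 8. INHA, the alpha subunit of the hormone inhibin, was lower in 6 of 6 mares at day 12 (-0.63 ± 0.29) and higher in 4 of 5 at day 8 (0.40 ± 0.32), with a difference of -1.03 ± 0.43 (adjusted p = 0.447), though its day 12 change was 0.07 relative to all probes with normexp. GAST, the gene of gastrin, stood at -0.18 ± 0.33 and -0.39 ± 0.36. SV2A, a protein of synaptic and secretory vesicles, stood at -0.21 ± 0.19 and -0.06 ± 0.21. CALCA, which encodes calcitonin and its related peptide, stood at 0.14 ± 0.28 and 0.01 ± 0.31 by its brightest probe, with day 12 and the difference (0.13) of the other sign in the authors' value table. A second and dimmer CALCA probe rose at day 12 (2.23 ± 0.37, adjusted p = 0.0390) and stood at -0.24 ± 0.41 at day 8, a fitted difference of 2.48 ± 0.55 (adjusted p = 0.204). That probe was well above background on 4 of 6 pregnant arrays and 1 of 6 control arrays of day 12 and on 0 arrays of day 8. It therefore entered the test mostly through the group in which it was high. Its day 8 value sets background against background, and its sizes are not exact.

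SPI2, a serine protease inhibitor gene, had the second largest difference among named genes. Pregnant day 12 samples stood at -4.24, -3.44 and -2.37 (lowest, median, highest) and controls at -6.46, -5.35 and -3.92. At day 8 the pregnant samples of mares 1, 2, 4, 5 and 6 lay at -5.97, -6.66, -6.05, -6.79 and -4.28 and the controls at -3.88, -4.89, -5.13, -6.36 and -4.58. At day 12 only the control of mare 5 reached into the pregnant range, and at day 8 mare 6 alone was higher in pregnancy. The change was 1.88 ± 0.38 at day 12 (higher in 6 of 6 mares, adjusted p = 0.0702) and -0.98 ± 0.42 at day 8 (lower in 4 of 5, adjusted p = 0.833), a difference of 2.86 ± 0.57 (adjusted p = 0.151). Its dimmer probe gave 2.29 ± 0.48 and -1.97 ± 0.53, and the difference there was 4.26 ± 0.71 (adjusted p = 0.115). Of the day 8 arrays, 1 pregnant and 4 control arrays held that probe well above background.

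Prostaglandins are made from membrane arachidonic acid in steps: a phospholipase frees it, a cyclooxygenase converts it to a shared precursor, and terminal synthases form the separate prostaglandins, which act through their own receptors. Of 10 measured members, 8 had opposite signs on the 2 days, 3 of them higher at day 12 and 5 lower at day 12, against opposite signs in 52.4% of all named genes, and 1 (PTGS2, whose day 12 sign flips with normexp) turned in every mare. Without mare 4 of day 8 the 5 became 3, and with normexp the counts were 1 and 6 relative to all probes. List members named below beyond the 2 with the smallest p-values of each list were chosen after their values were seen. The medians were -0.11 at day 12 and 0.02 at day 8, against 0.0007 and 0.0097 over all named genes, 4 members had an unadjusted p under 0.05 and 0 passed. Higher at day 12 and lower at day 8 were PLA2G4A, PTGS2 and, by values near 0 (0.01 ± 0.10 and -0.00 ± 0.11, flipping with normexp), the synthase PTGES3.

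PLA2G4A, the cytosolic phospholipase that frees arachidonic acid, was higher at day 12 (0.39 ± 0.21, 5 of 6 mares) and lower at day 8 (-0.23 ± 0.23, 3 of 5 mares), a difference of 0.62 ± 0.31 (adjusted p = 0.510). PTGS2 is the inducible cyclooxygenase. Its level was 0.45, 0.94 and 1.74 (lowest, median, highest) in pregnant and 0.08, 0.71 and 1.60 in control samples of day 12. At day 8 it was 1.86, 0.22, 1.46, 1.59 and 1.60 in the pregnant samples of mares 1, 2, 4, 5 and 6 and 1.94, 1.06, 1.59, 1.74 and 2.24 in their controls. The groups of each day overlapped, but the change had 1 sign in every mare of a day. It was 0.04 to 0.54 at day 12 and -0.84 to -0.09 at day 8. The fitted changes were 0.27 ± 0.11 and -0.37 ± 0.12, a difference of 0.64 ± 0.17 (adjusted p = 0.258), with opposite signs in 3 of 3 probes. As said above, its day 12 direction did not hold relative to all probes with normexp, where the difference was 0.08.

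PTGES, a synthase of prostaglandin E, had the signs opposite to those of PTGS2. It was lower at day 12 in 4 of 6 mares (-0.15 ± 0.11) and higher at day 8 in 5 of 5 (0.28 ± 0.12), a difference of -0.42 ± 0.16 (adjusted p = 0.409), and all 5 of its probes had these opposite signs. PTGDS, a synthase of prostaglandin D, was lower at day 12 in 6 of 6 mares by its brighter probe (-0.27 ± 0.08), with 0.02 ± 0.09 at day 8. Its dimmer probe, singled out after its values were seen, turned in every mare. There the day 12 changes of mares 1 to 6 were -0.30, -0.50, -0.28, -0.34, -0.52 and -0.42, and the day 8 changes of mares 1, 2, 4, 5 and 6 were 0.30, 0.31, 0.28, 0.09 and 0.15. By that probe PTGDS fell by 0.39 ± 0.07 at day 12 (change -0.39, adjusted p = 0.0407) and was higher by 0.23 ± 0.07 at day 8 (adjusted p = 0.823), a difference of -0.62 ± 0.10 (adjusted p = 0.107). With array weights this difference was past the threshold (-0.61, adjusted p = 0.0442), and over all alternatives the adjusted p ran from 0.0442 to 1.00.

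PTGFR, the receptor of prostaglandin F, was dimmer. Its pregnant samples at day 12 stood at -5.47, -4.09 and -3.62 (lowest, median, highest) and the controls at -4.63, -3.73 and -2.94. The change was -0.49 ± 0.21 at day 12, lower in 4 of 6 mares, and 0.24 ± 0.23 at day 8, higher in 3 of 5, with a difference of -0.73 ± 0.31 (adjusted p = 0.447). PTGER2, a receptor of prostaglandin E, showed -0.07 ± 0.14 and 0.06 ± 0.15. HPGD, which inactivates prostaglandins, showed -0.38 ± 0.43 and 0.44 ± 0.47, with a day 12 change of 0.15 relative to all probes under normexp. For these 3 genes the day 8 change was close to its SE or under it.

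**Figure D3:**
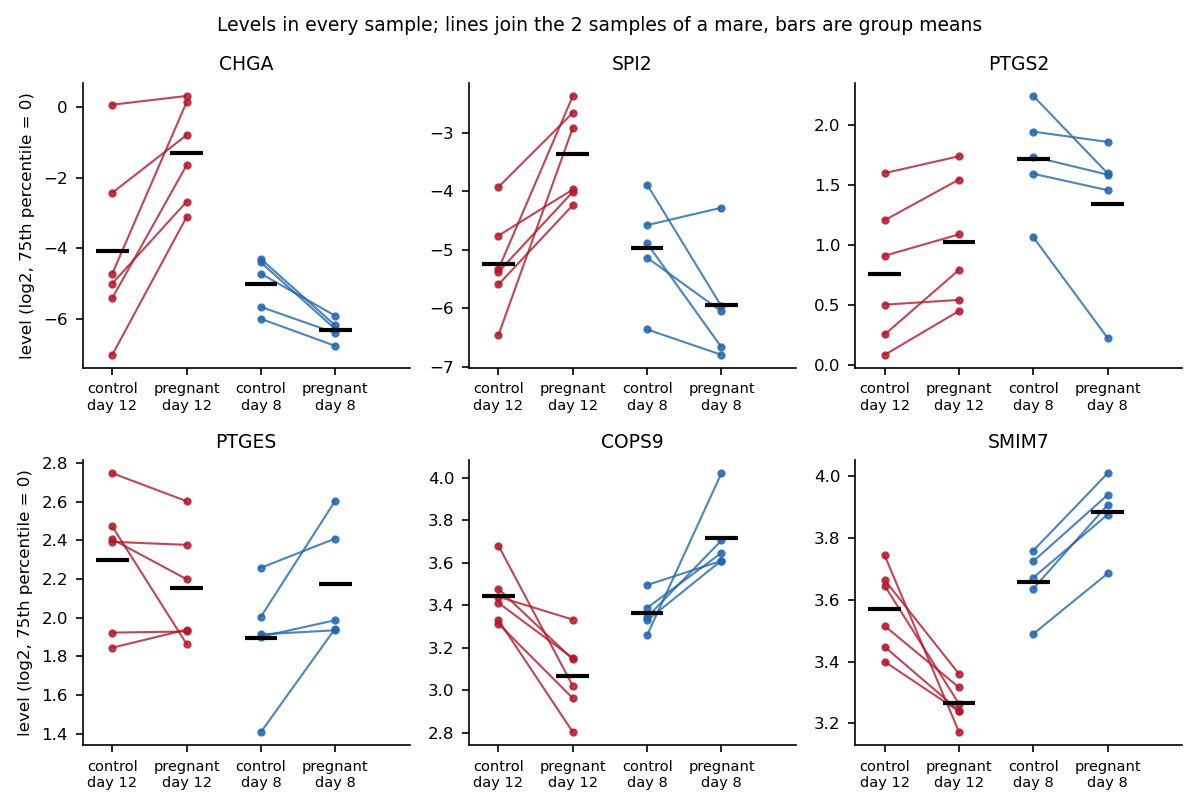
Level (y axis, log2 over the 75th percentile of its array) of CHGA, SPI2, PTGS2, PTGES, COPS9 and SMIM7 in every sample, with a line joining the control and the pregnant sample of each mare and a bar at each group mean (6 mares at day 12 in red, 5 at day 8 in blue). Every line of CHGA and PTGS2 climbs at day 12 and descends at day 8, and every line of COPS9 and SMIM7 does the reverse, although the PTGS2 climb was not kept relative to all probes with normexp.

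COPS9 and SMIM7 were the named genes turned in every mare the other way, and both were bright, well above background on every array. COPS9 is a subunit of the COP9 signalosome, which removes the ubiquitin-like protein NEDD8 from cullin ubiquitin ligases. Its level was 2.80, 3.08 and 3.33 (lowest, median, highest) in pregnant and 3.31, 3.43 and 3.68 in control samples of day 12. At day 8 it was 3.65, 3.71, 4.02, 3.61 and 3.61 in the pregnant samples of mares 1, 2, 4, 5 and 6 and 3.39, 3.34, 3.26, 3.50 and 3.33 in their controls. All day 8 pregnant samples lay above all day 8 controls, and at day 12 the groups met only at their edges. The change was -0.37 ± 0.10 at day 12 and 0.36 ± 0.11 at day 8, a difference of -0.73 ± 0.14 (adjusted p = 0.151). All 4 probes of COPS9 had these signs, and 3 of the 4 turned in every mare.

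SMIM7 encodes a small membrane protein. Its level was 3.17, 3.25 and 3.36 (lowest, median, highest) in pregnant and 3.40, 3.58 and 3.74 in control samples of day 12, so that the groups did not overlap. At day 8 it was 3.68, 3.87, 4.01, 3.94 and 3.91 in the pregnant samples of mares 1, 2, 4, 5 and 6 and 3.49, 3.67, 3.76, 3.72 and 3.64 in the controls, with 1 pregnant sample inside the control range. Day 8 changes were nearly equal between mares, 0.20 to 0.27, and day 12 changes ran from -0.57 to -0.16. The fitted changes were -0.30 ± 0.07 and 0.23 ± 0.08, a difference of -0.53 ± 0.10 (adjusted p = 0.151), and 2 of 2 probes turned in every mare. The other measured members of the protein turnover list were COPS7A, also a signalosome subunit (-0.10 ± 0.09 and 0.18 ± 0.10), PSMD4, a proteasome subunit (0.03 ± 0.07, lower than all probes with normexp, and -0.07 ± 0.08), and the ubiquitin gene UBB (-0.10 ± 0.09 and -0.08 ± 0.10). None of the 4 passed.

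The remaining named genes with the smallest p-values among those of opposite sign fell short of turning in every mare. On the side higher at day 12 and lower at day 8 were RND3, ABCC1, PYGL, ARNTL, EIF2AK2 and EPHB1. RND3, whose product loosens actin stress fibres, rose in 6 of 6 mares at day 12 (0.77 ± 0.12, adjusted p = 0.0327) and stood at -0.08 ± 0.14 at day 8, with changes from -0.69 to 0.41. ABCC1, an exporter of conjugated organic compounds, rose at day 12 by 1 of its 2 probes (0.68 ± 0.12, adjusted p = 0.0474; the other 0.43) and stood at -0.12 ± 0.13 at day 8. For both genes the difference, 0.85 ± 0.18 and 0.80 ± 0.18, rested mostly on the day 12 change (adjusted p = 0.184 and 0.201).

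PYGL, a glycogen phosphorylase that releases glucose from glycogen, stood at 0.44 ± 0.12 and -0.21 ± 0.13, and the clock gene ARNTL at 0.30 ± 0.08 and -0.09 ± 0.09, but with normexp neither was higher than all probes at day 12. EPHB1, a receptor of ephrins near background, had its larger change at day 8 (-0.73 ± 0.24, against 0.28 ± 0.22 at day 12), where 2 of 5 pregnant arrays held it well above background.

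On the side lower at day 12 and higher at day 8 were NLGN3, PPAT, CENPX, EEF1G, CYP17A1, BSDC1, TMEM147 and PRKAG3 besides COPS9 and SMIM7. EEF1G, a subunit of the elongation factor that brings transfer RNA to the ribosome, was lower in 6 of 6 mares at day 12 (-0.27 ± 0.09) and higher at day 8 in 4 of 5 (0.22 ± 0.10), giving a difference of -0.49 ± 0.14 (adjusted p = 0.302). PPAT, the enzyme of the first step of purine synthesis, was lower in 6 of 6 mares at day 12 (-0.48 ± 0.10) and stood at 0.08 ± 0.11 at day 8 (adjusted p of the difference 0.287). TMEM147, a protein of the endoplasmic reticulum membrane, was lower in 6 of 6 mares (-0.31 ± 0.08) and stood at 0.09 ± 0.09 at day 8. CENPX, a DNA-binding protein of centromeres, showed -0.33 ± 0.10 and 0.18 ± 0.11. BSDC1 leaned on day 8, with -0.15 ± 0.08 and 0.26 ± 0.09, higher in 5 of 5 mares.

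The dimmer members of that side depended on the background correction. NLGN3, a neuroligin of cell adhesion, was at -0.40 ± 0.10 and 0.17 ± 0.11, and CYP17A1, an enzyme of androgen synthesis, at -0.24 ± 0.07 and 0.10 ± 0.07 (its second probe at -0.19 and -0.07), but with normexp both were higher than all probes at day 12 and their differences were positive. PRKAG3, a regulatory subunit of the energy sensor AMPK, was at -0.14 ± 0.09 and 0.31 ± 0.10, with a day 12 change of 0.13 relative to all probes under normexp. None of these differences passed (adjusted p from 0.286 to 0.313).

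**Figure D4:**
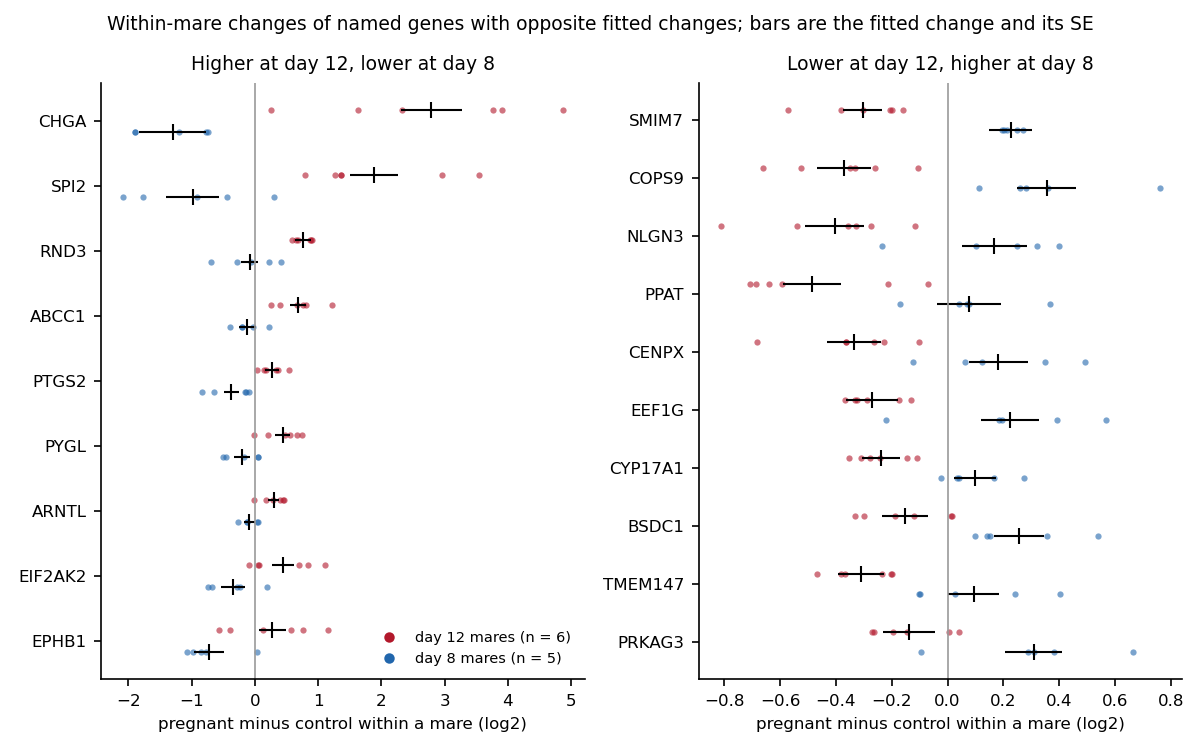
Pregnant minus control within a mare (x axis, log2) for the named genes with the smallest p-values in each direction, 9 on the left panel and 10 on the right; points are mares (6 at day 12 in red, 5 at day 8 in blue) and black marks the fitted change with its SE. CHGA and SPI2 stand apart on the left panel, and the right panel has a much narrower axis; the day 12 side of PTGS2, PYGL, ARNTL, NLGN3, CYP17A1 and PRKAG3 does not hold relative to all probes with normexp.

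GM2A, the lysosomal activator of ganglioside breakdown, shows the contrast with a gene that kept its direction. It rose by 2.10 ± 0.22 at day 12 (adjusted p = 0.0027) and was higher at day 8 in 5 of 5 mares (0.48 ± 0.24, adjusted p = 0.834). The difference, 1.61 ± 0.33, was therefore one of size (adjusted p = 0.157). HSD11B2, which inactivates cortisol, was lower on both days at -0.77 ± 0.23 and -0.28 ± 0.25, and with normexp its difference was 0.01 relative to all probes. ESR1 stood at -0.18 ± 0.17 and 0.09 ± 0.19, with opposite signs in 1 of 6 probes. The collagenase MMP1 was well above background on 4 of the day 8 control arrays and on 0 of the pregnant ones. With the pregnant arrays held at or above background in this way, the day 8 control mean was 1.48-fold the pregnant mean. The fitted changes were 0.11 ± 0.45 at day 12 and -0.60 ± 0.49 at day 8. The difference was 0.71 ± 0.67 (limma, adjusted p = 0.730), so the fold is not an established one. The 8 probes of MMP1 had changes from -2.66 to -0.27 at day 8 and from -0.43 to 0.69 at day 12.

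In the immune gene lists more members were higher at day 12 and lower at day 8 than the reverse, with 0 members past the threshold for the difference. With normexp, relative to all probes, this balance turned in the interferon list (3 against 4) and the antigen presentation list (0 against 1). Interferon response genes are switched on by interferons as a defence against viruses, and in ruminants by the conceptus. Of 10 measured, 7 were higher at day 12 and lower at day 8 and 1 the reverse, with medians of 0.23 and -0.06. Of all 609 named genes, 154 had the first pattern and 165 the reverse. EIF2AK2, a kinase that halts translation when it meets double-stranded RNA, had the smallest p of the list. It was higher at day 12 in 5 of 6 mares (0.45 ± 0.17) and lower at day 8 in 4 of 5 (-0.35 ± 0.19), a difference of 0.80 ± 0.25 (adjusted p = 0.329), and 3 of 3 probes had these signs. OAS2, which makes the oligoadenylates that activate RNA decay, stood at 0.40 ± 0.19 and -0.14 ± 0.21.

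CXCL10, a chemokine induced by interferon that attracts T cells, was higher in 6 of 6 mares at day 12 (0.39 ± 0.27) and lower in 4 of 5 at day 8 (-0.57 ± 0.30). At day 8 its controls of mares 1, 2, 4, 5 and 6 stood at -3.43, -3.86, -1.53, -3.66 and -3.37 and the pregnant samples at -3.92, -3.43, -3.79, -3.70 and -3.85. The control of mare 4 was the single bright sample, and the change of that mare, -2.26, was the largest of the day. The list as a whole was also lowest in mare 4 at day 8. Its median change was -0.43 in that mare and between -0.11 and 0.18 in the other day 8 mares, and without mare 4 of day 8 the members with opposite signs of this kind went from 7 to 4 of 10. With normexp they were 3 of 10 against 4 the reverse, and the list's median at day 12 was -0.17 relative to all probes.

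Chemokines, cytokines and their receptors were also counted. Of 30 measured, 11 were higher at day 12 and lower at day 8 and 2 the reverse (1 without mare 3 of day 12), with medians of 0.08 and -0.17, against 154 and 165 of 609 for all named genes. TGFB1, a growth factor that dampens immune responses, stood at 0.31 ± 0.13 and -0.22 ± 0.14, lower at day 8 in 5 of 5 mares, with a difference of 0.52 ± 0.19 (adjusted p = 0.371). TNF was lower in 5 of 5 mares at day 8 (-0.42 ± 0.16) and stood at -0.09 ± 0.15 at day 12. IL1RN, which blocks the interleukin-1 receptor, stood at 0.43 ± 0.30 and -0.27 ± 0.33, although 4 of 5 mares were higher at day 8. IL5 was the clearest of the reverse kind, at -0.18 ± 0.11 and 0.15 ± 0.13. Without mare 4 of day 8 the median at day 8 was 0.01 and 8 of 30 members had the first pattern, and with normexp 19 did and 4 the reverse, relative to all probes.

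Innate defence genes, mainly sensors of microbes, were lower at day 8 in 9 of 10 cases and higher at day 12 in 6, with medians of -0.12 and 0.07. Over all named genes the medians were 0.0097 at day 8 and 0.0007 at day 12. Without mare 4 of day 8 the innate defence genes were lower at day 8 in 7. TLR4, the receptor of bacterial lipopolysaccharide, stood at 0.16 ± 0.14 and -0.31 ± 0.16, and its co-receptor CD14 at 0.51 ± 0.16 and -0.03 ± 0.17. With normexp neither was higher than all probes at day 12, and relative to all probes their differences were -0.01 and -0.003. TLR9, a sensor of unmethylated DNA, stood at 0.05 ± 0.13 and -0.33 ± 0.14 and the RNA sensor TLR3 at 0.26 ± 0.13 and -0.07 ± 0.14. Opposite signs with a higher day 12 were found for 5 of 10, and for 3 of 10 without mare 4 of day 8, against 154 of 609 named genes. CD74, the chaperone of class II antigen presentation, stood at 0.25 ± 0.19 and -0.33 ± 0.21, and was not higher than all probes at day 12 with normexp. In mare 3 at day 12 its change was -0.89.

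**Figure D5:**
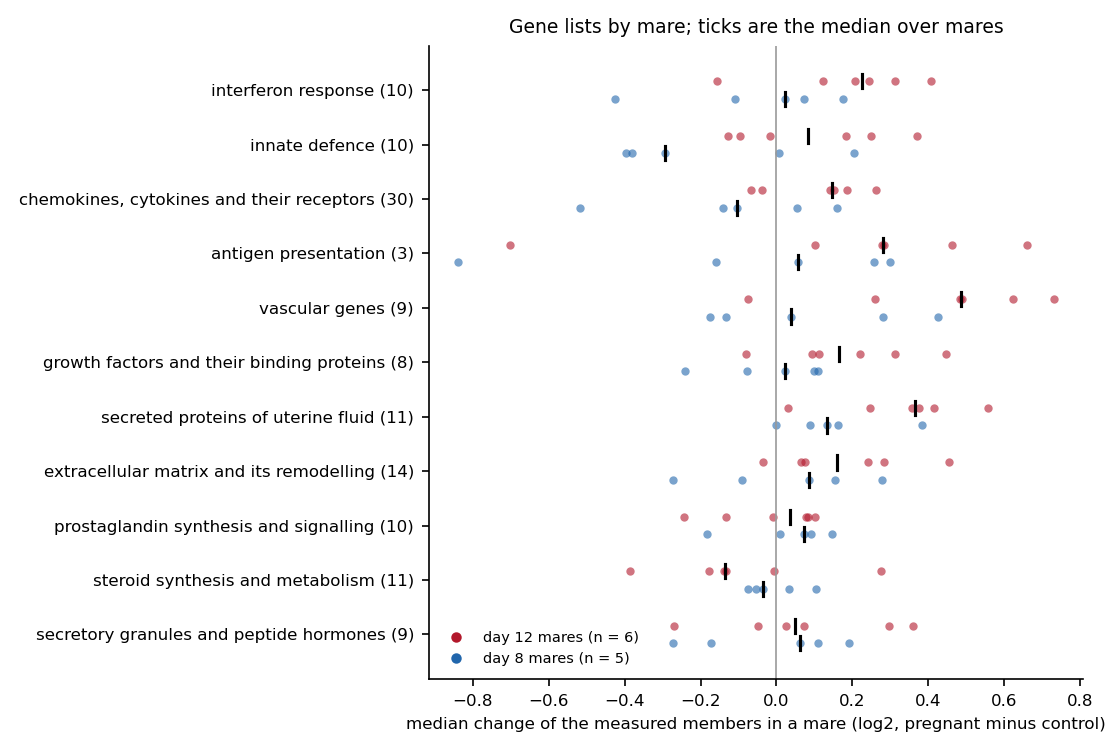
Median change of the measured members of a list within each mare (x axis, log2, pregnant minus control), with 6 mares at day 12 in red and 5 at day 8 in blue; the number of measured members is in brackets and ticks mark the median over mares. For interferon, chemokine and antigen presentation genes the lowest day 8 point is mare 4 (-0.43, -0.52 and -0.84), and with normexp the interferon list was not higher than all probes at day 12.

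Of 9 vascular genes 8 were higher at day 12 and 8 at day 8, with medians of 0.37 and 0.14, against 0.0007 and 0.0097 over all named genes. With normexp 6 were higher than all probes at day 12 and 7 at day 8. ANGPTL2, a secreted angiopoietin-like protein, rose at day 12 (0.75 ± 0.10, adjusted p = 0.0153) and stood at 0.15 ± 0.11 at day 8, and CDH13, a cadherin held by a lipid anchor, rose at day 12 (1.07 ± 0.16, adjusted p = 0.0192) and stood at 0.22 ± 0.18. Their differences were 0.60 ± 0.15 and 0.85 ± 0.24 (adjusted p = 0.251 and 0.296). The endothelin B receptor EDNRB had the reverse signs, at -0.38 ± 0.17 and 0.11 ± 0.18, and SELP, the P-selectin of platelets and endothelium, was higher at day 12 and lower at day 8 (0.37 ± 0.11 and -0.09 ± 0.12), with a difference of 0.46 ± 0.16 (adjusted p = 0.356).

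Of 11 secreted proteins of uterine fluid, 2 were higher at day 12 and lower at day 8, SPI2 and the retinol carrier RBP4 (0.59 ± 0.26 and -0.06 ± 0.28), and 2 the reverse, against 2 and 4 relative to all probes with normexp. The follistatin gene FST, whose product binds activins, was the stronger of the reverse pair, higher in 5 of 5 mares at day 8 (0.31 ± 0.12) and at -0.05 ± 0.11 at day 12. Of 14 extracellular matrix genes 5 were higher at day 12 and lower at day 8 and 1 the reverse, while without mare 3 of day 12 the 5 became 3 and with normexp the counts were 5 and 5 relative to all probes. Among them were the hyaluronan receptor CD44 (0.43 ± 0.19 and -0.20 ± 0.21) and the integrin ITGA5 (0.38 ± 0.21 and -0.16 ± 0.23). Another was the gelatinase MMP9, lower in 5 of 5 mares at day 8 (-0.98 ± 0.55) and at 0.27 ± 0.50 at day 12. At day 12 only 2 mares were higher for MMP9, so its positive mean did not describe most mares. Of 11 steroid metabolism genes 1 was higher at day 12 and lower at day 8 (2 without mare 3 of day 12) and 3 the reverse, against 2 and 1 relative to all probes with normexp. Of these lists 0 members passed for the difference. Of all 609 named genes, 154 were higher at day 12 and lower at day 8 and 165 the reverse.

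Markers of other cell types were few among the named genes. Neutrophil and B cell lists had 0 measured members. Of 4 macrophage and dendritic cell markers, CD14, ITGAX and CD68 were higher at day 12 and lower at day 8, with differences of 0.53 ± 0.23, 0.22 ± 0.32 and 0.02 ± 0.22. Relative to all probes with normexp, CD14 was not higher at day 12 and its difference was -0.003. The sign of CD68 flipped with normexp at day 8, and with quantile normalisation at day 12 and in the difference. Without mare 4 of day 8 the 3 became 0. LAPTM5 stood at 0.08 ± 0.15, lower than all probes with normexp, and 0.10 ± 0.16. The cytotoxic granule gene GZMB stood at -0.07 ± 0.38 and 0.52 ± 0.42, the T cell gene CD2 at 0.04 ± 0.20 and -0.21 ± 0.22, and the mast cell tryptase gene TPSB2 at -0.23 ± 0.44 and 0.50 ± 0.48. FCER1A, the other mast cell marker measured, stood at 0.10 ± 0.35, lower than all probes with normexp, and 0.61 ± 0.38. GZMB, CD2 and TPSB2 varied widely between mares, TPSB2 from -1.12 to 2.44 at day 8. TAGLN of smooth muscle stood at 0.90 ± 0.23 and 0.28 ± 0.25, the endothelial gene PECAM1 at 0.44 ± 0.16 (lower than all probes with normexp) and 0.11 ± 0.18. ESRP1, expressed in epithelium, differed by under 0.5 log2 in each mare, with changes of -0.00 ± 0.08, a sign that flips with quantile or array-median scaling and in the authors' value table, and 0.09 ± 0.09. The part of cell composition in the turns was not tested, and in bulk tissue fewer cells of a type and less RNA per cell cannot be told apart.

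Of the trophoblast and embryo markers 2 were measured. The placental hormone subunit gene CGA stood at 0.25 ± 0.23 and -0.63 ± 0.25 and the pregnancy-associated glycoprotein gene PAG at -0.02 ± 0.18, a sign that flips with normexp and in the authors' value table, and -0.21 ± 0.20. Group means of both lay between -5.69 and -4.65, and both probes were well above background on all 22 arrays, controls included. The other 4 CGA probes stood between 0.20 and 0.34 at day 12 and between -0.20 and -0.09 at day 8, and the other 4 PAG probes between 0.11 and 0.40 and between -0.49 and -0.20. In each of these genes the pregnant and control samples of a day overlapped. The part of such cells in the results was not tested.

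Most turned transcripts carry no symbol here. In the direction higher at day 12 and lower at day 8, ENSECAT00000008438 rose at day 12 (2.34 ± 0.25, adjusted p = 0.0027), with signal well above background on 6 pregnant arrays and 3 control arrays of that day. Those 6 pregnant arrays alone were enough for it to enter the test. The remaining day 12 controls were not well above background, so its sizes are not exact. Its changes were 3.00, 1.32, 2.39, 1.95, 1.68 and 3.69 in day 12 mares 1 to 6, and -0.46, -0.54, -0.22, -0.15 and -0.32 in day 8 mares 1, 2, 4, 5 and 6. The fitted difference was 2.68 ± 0.37 (adjusted p = 0.0644). With normexp, relative to all probes, its changes were 0.88 at day 12 and -0.06 at day 8, and its difference was 0.93. All 5 of its probes had opposite signs and 2 turned in every mare, but its brightest probe did not (difference 2.06 ± 0.30, adjusted p = 0.0872). ENSECAT00000012106 had opposite signs in 7 of 7 probes, 5 of them in every mare, and 2 of the 7 were well above background on all 22 arrays, the probe given here and the brightest (difference 2.40 ± 0.55, adjusted p = 0.212). It rose by 1.12 ± 0.19 at day 12 (adjusted p = 0.0369) and was lower in 5 of 5 mares at day 8 (-0.69 ± 0.20, adjusted p = 0.797), a difference of 1.80 ± 0.27 (adjusted p = 0.0981). These were the 2 accessions with 2 or more probes turned in this direction.

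ENSECAT00000015903 and ENSECAT00000016020 owed more to day 8. The former stood at 0.23 ± 0.11 and -0.61 ± 0.12 (difference 0.84 ± 0.17, adjusted p = 0.151). The latter stood at 0.16 ± 0.08 and -0.42 ± 0.09 (difference 0.58 ± 0.12, adjusted p = 0.154), and with normexp its day 12 change was -0.05 relative to all probes.

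In the direction lower at day 12 and higher at day 8, 29 accessions had 2 or more probes turned in every mare. CX601753 led by p. Its pregnant samples stood at 1.67, 2.13 and 3.00 (lowest, median, highest) at day 12 and the controls at 2.06, 2.82 and 3.18. At day 8 the pregnant samples of mares 1, 2, 4, 5 and 6 stood at 3.03, 3.72, 3.77, 3.73 and 3.72 and the controls at 2.66, 3.15, 3.08, 3.39 and 3.30. The 2 days mirrored each other in size, with changes of -0.47 ± 0.09 and 0.48 ± 0.10, a difference of -0.95 ± 0.13 (adjusted p = 0.0644), and both of its probes turned in every mare, the brighter with a difference of -0.88 ± 0.13 (adjusted p = 0.0872).

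ENSECAT00000012773 stood at -0.41 ± 0.09 and 0.40 ± 0.10 (4 of 5 probes turned, the brightest not) and ENSECAT00000011798 at -0.37 ± 0.09 and 0.38 ± 0.09 (2 of 2), with differences of -0.81 ± 0.14 and -0.76 ± 0.13 (adjusted p = 0.115 for both). ENSECAT00000014217 and ENSECAT00000025523, each with 1 probe, fell at day 12 by 0.61 ± 0.10 and 0.48 ± 0.08 (changes -0.61 and -0.48, adjusted p = 0.0266 and 0.0476) and were higher in 5 of 5 mares at day 8 by 0.29 ± 0.11 and 0.24 ± 0.09. The largest turned difference of this direction, chosen after its values were seen, belonged to A_69_P118161, a probe without a transcript accession, at -2.26 ± 0.42 and 0.89 ± 0.46 (difference -3.15 ± 0.62, adjusted p = 0.151).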

How the data were processed

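Endometrial RNA labelled with Cy3 was hybridised to 22 one-colour Agilent horse arrays. The deposited scanner files hold processed spot intensity on a linear scale, background-subtracted by Agilent Feature Extraction per the file headers (10.5.1.1 at day 12 and 10.7.3.1 at day 8, while the submitters' processing notes name 10.5.1.1). Flags and the median spot and background signals were the other deposited columns used. The authors' deposited value table holds log2 values with no source used here stating their centring or normalisation.

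Intensities were set to log2, minus the 75th percentile of each array over spots that are not controls. Outlier spots were left out, spots of a probe were averaged, and probes well above background on at least 5 of 22 arrays were kept. limma 3.58.1 in R 4.3.3 fitted a pregnancy change per day with the mare within a day as a block, and p-values were adjusted by the Benjamini-Hochberg method over all probes, with a threshold of 0.05. Same-mare pregnant and control deviations correlated at 0.289 to 0.725 at day 12 and 0.321 to 0.817 at day 8, and all 11 mares matched themselves best; the labels name the mare. Both arrays of a mare also shared a slide, and the part of the slide in these correlations was not tested. P-values measure the spread between these mares. The fit was tested on simulated data.

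Of 43603 probes, 1394 carry 1 symbol, 1 several and 42208 none; 3820 features differ in accession between the 2 annotation versions. Named were genes with a probe past the threshold, the 10 with the smallest p in each direction of opposite signs, those turned in every mare, 10 chosen genes, the leading accessions turned in every mare and list examples, genes by their brightest probe and accessions by their probe with the smallest p; the dimmer PTGDS probe was added after its values were seen, and 1 gene the rule names is not reported here. The members and lists were chosen with earlier results of these data known. Alternatives were normexp (offset 50, on median spot and background signals, since the scanner data at hand held no mean spot signal), quantile or median scaling, filters, the authors' table, blocks, variance models and leaving out mares. Slide and scan day as random blocks were added after seeing the data. The number of arrays limits precision.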

Additional observations from a re-analysis of the deposited data

Results flagged for a closer look

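Of 80 groups of within-mare changes checked, 4 held a mare far from the rest of its day, and chance gives about 1 in 20. At day 8 EPHB1 was 0.032 in mare 4 against -1.08 to -0.77 in the others. PTGDS (brighter probe) was -0.26 in mare 5 against 0.06 to 0.12. CALCA was -0.40 in mare 6 against 0.06 to 0.19. The second probe of ENSECAT00000015626 was -1.64 in mare 6 against -0.38 to -0.12, all at background.

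The other results stand here because the change differed between the days, either by limma's test or because every mare of day 12 moved one way and every mare of day 8 the other. Past the threshold of limma's test were ENSECAT00000015626, with differences of 5.17 and, in its second probe, 5.64 (adjusted p = 0.00286 and 0.0142; both at background on every day 8 array, so the sizes are not exact), and ENSECAT00000022839 at -2.33 (adjusted p = 0.0434).

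The rest turned in every mare without passing the test. Higher at day 12 and lower at day 8 were CHGA with a difference of 4.09, PTGS2 with 0.64, ENSECAT00000008438 with 2.68, ENSECAT00000012106 with 1.80, ENSECAT00000015903 with 0.84 and ENSECAT00000016020 with 0.58, although with normexp PTGS2 and ENSECAT00000016020 were not higher than all probes at day 12. Lower at day 12 and higher at day 8 were SMIM7 with -0.53, COPS9 with -0.73, the second probe of PTGDS with -0.62, CX601753 with -0.95, ENSECAT00000014217 with -0.90, ENSECAT00000012773 with -0.81, ENSECAT00000011798 with -0.76 and ENSECAT00000025523 with -0.72. Their adjusted p-values ran from 0.0644 (CX601753 and ENSECAT00000008438) to 0.258 (PTGS2). The sizes given for ENSECAT00000008438 and CHGA are not exact, as said above.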

How the results depend on the processing

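For the difference, 4 probes passed in the reported limma fit, 5 with normexp and 4 with the array median or with outlier spots kept. Of the 4, 0 were among those that passed with normexp, which belong to 1 other accession; all 4 were with the array median, with outlier spots kept, with the trended prior and with array weights. The count was 2 without a filter on dim probes and with slide as the block, and 11 with a trended and robust prior and 33 with array weights. A random block, added after seeing the data, gave 17 whether it was the slide or the day of scanning. It was 0 with quantile normalisation (4224 probes at an unadjusted p under 0.05), among probes above background on all 22 arrays (3824), in the authors' value table (4189), with no replicate block (927) and with the replicate number as a block across days (5170), and 1 to 33 with a mare left out. At day 12, 102 probes passed, against 13 with normexp, 218 above background on all 22 arrays, 303 in the authors' table, 41 with no replicate block, 287 with the trended prior, 1870 with array weights, 314 and 315 with slide and scan day as random blocks, and 31 to 977 with a mare left out. At day 8, 0 passed in each fit except 1 with array weights. The 181 probes turned in every mare became 199 to 376 with a mare left out.

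Mare numbers pair the samples of a day. The labels do not state that a shared number is the same animal on both days, so the numbers were not taken to pair the days. Across days, same-numbered mares correlated at -0.153 to 0.342, and the same number was the best match in some comparisons and not in others. These correlations also cross slides and software versions, and whether the numbers mark the same animals is unknown.

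Of 1963 alternative values for 79 named results, 1887 kept direction and side of the threshold, 22 passed it anew, 26 lost it and 28 changed sign. With normexp the differences that changed sign were COPS7A 0.17, CYP17A1 0.58, ENSECAT00000014217 0.15, ENSECAT00000022839 0.31, HSD11B2 0.39, INHA 0.23, ITGA2B 0.20, LUM -0.11, NLGN3 0.43, PRKAG3 0.24, PTGFR 0.14, RSPO1 0.45, TPPP3 0.33 and WNT2 0.63, before the shift of all probes is taken off. Others were CALCA (-0.080, authors' table), LUM (-0.036, array median), DCN and TPPP3 (0.065 and 0.018 with array weights, 0.079 and 0.24 with the replicate block across days). With a mare left out CALCA ran from -0.24 to 0.35, TPPP3 from -0.26 to 0.24, DCN from -0.13 to 0.079, LUM from -0.13 to 0.28 and PAG from -0.0099 to 0.36. The cause was not tested. Probes near background bound what could be measured.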
